A study of Mus musculus with 12 samples.

Results

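The collagen genes were examined in 6 total RNA libraries of C2C12, an established line of mouse myoblasts that fuse into multinucleate muscle fibres in culture. The members are all genes of the count table whose symbol is Col, a type number, the letter a and a chain number. There were 44 of them among 55385 genes. The groups were undifferentiated C2C12 myoblasts (the control, 3 libraries) and C2C12 cells differentiated into myotubes for 7 days (3 libraries). No other genotype or agent is named, and a culture of 1 line gives replicates of that line only. The series also holds 6 small RNA libraries of embryonic stem cells, which are not analysed here. Whether the replicates were grown as separate cultures is not stated. The p-values therefore weigh differences against the spread among these 6 libraries, and that spread may be technical.

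Collagens are secreted or membrane-bound proteins in which 3 chains wind into a triple helix. Fibrillar collagens (types I, II, III, V, XI, XXIV and XXVII) build the rope-like fibrils of connective tissue, and FACIT collagens (types IX, XII, XIV, XVI, XIX, XX and XXII) sit on the surface of those fibrils or at tissue borders. Type IV collagen forms the network of the basement membrane that wraps each muscle fibre, and type VI forms beaded filaments that link this layer to the surrounding matrix. Transmembrane collagens keep an anchor in the cell membrane, and several of them act at the synapse between nerve and muscle.

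Library depth was 18335785 to 54083215 counts. Levels are given as CPM, read counts scaled to a common library size with TMM factors, and, where genes are compared with each other, as RPKM, the same value per 1000 bases of the deposited gene length. A gene is called higher or lower in myotubes at an adjusted p under 0.05 in edgeR's quasi-likelihood test, fitted over 15932 genes. Log2 fold changes are myotubes minus myoblasts with their standard error (SE). The label of the myotubes was checked against muscle markers. All 8 listed genes (among them Myog, Ckm, Acta1 and Ttn) were higher in myotubes, and their summed level was 9183, 19856 and 22138 CPM in myotube replicates 1, 2 and 3 against 513.5 to 826 CPM in myoblasts. Replicate 1 was the lowest of the 3 in all 8. It was also the highest in all 6 cycling markers (summed level 886 against 232 and 193 CPM, with 2310 to 2355 CPM in myoblasts). It thus stood apart from replicates 2 and 3, and collagen fold changes and shares of counts that it moved by over 1.5 times are also given without it.

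Of the 44 collagen genes, 34 passed the filter on low counts. Of the other 10, Col6a6 and Col9a1 had a count in no library and 8 had between 2 and 52 counts over all 6 libraries. Among the tested genes 25 were called higher in myotubes and 2 lower, with 7 not called. That is 73.5% higher and 5.88% lower, against 20.5% and 19.6% of all tested genes, or 40.1% in either direction. For 12 of the 34, the myotube libraries alone brought the gene past the filter, and all 12 were called higher, which the filter favours. The remaining 22 lay above the filter's level of 0.343 CPM in all 6 libraries, and of these 13 were higher, 2 lower and 7 not called. Without myotube replicate 1, 23 were higher. In 29 of the 34 the 3 myotube libraries did not overlap the 3 myoblast libraries (85.3%, against 55.9% of all tested genes), with the myotubes above in 26 and below in 3. All 12 genes brought past the filter by the myotube libraries alone are among these 26, which the filter favours as well. The median log2 fold change of the 34, with those 12 included, was 2.67, or 1.66 without myotube replicate 1, against 0.06 for all tested genes. In such bulk samples more cells of a type and more RNA per cell cannot be told apart.

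**Figure D1:**
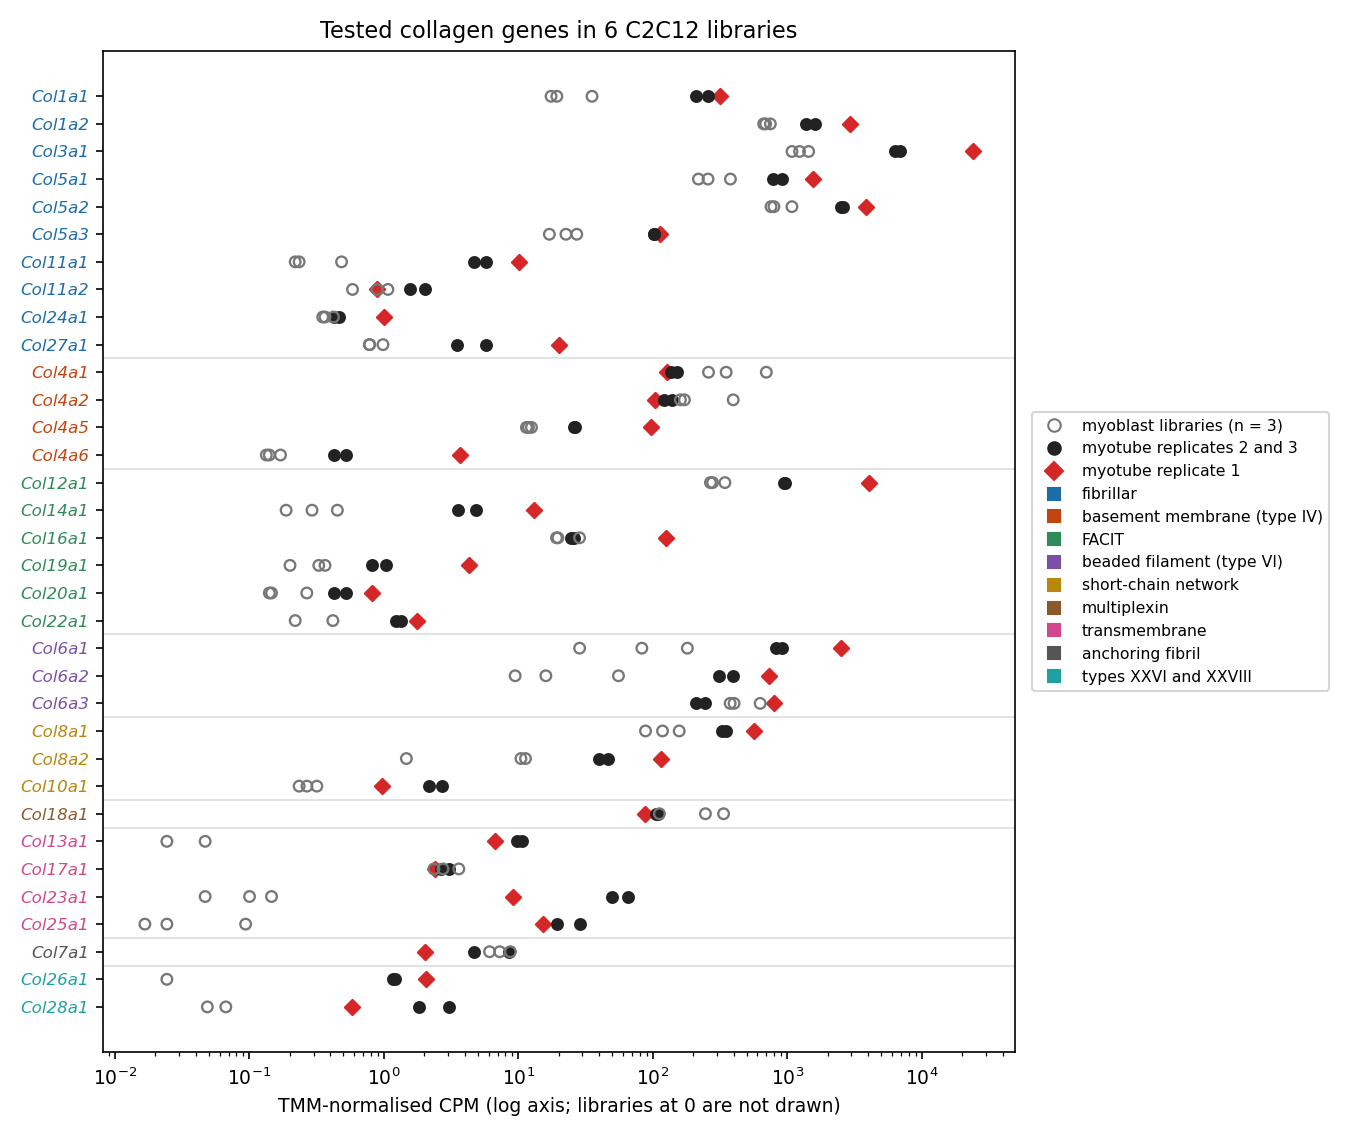
Each point is 1 library's level (TMM-normalised CPM, log axis) of 1 of the 34 tested collagen genes. Open circles are the 3 myoblast libraries, filled circles myotube replicates 2 and 3, and red diamonds myotube replicate 1, and the colour of a gene's name gives its class. Most fibrillar, FACIT and type VI genes lie to the right in myotubes, with Col3a1 at 24215 CPM in replicate 1, while Col4a1 lies to the left.

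Collagen genes took a larger part of each library in myotubes. They held 0.503%, 0.524% and 0.572% of all gene counts in myoblast replicates 1, 2 and 3 and 4.02%, 1.47% and 1.45% in myotube replicates 1, 2 and 3. The groups did not overlap, and replicate 1 held more than both other myotube libraries. The means were 0.533% ± 0.0353 and 2.31% ± 1.48 (SD, n = 3), with an exact two-sided permutation p of 0.1, the smallest that 3 against 3 can give. The difference of the means was 1.78 percentage points, or 0.930 without myotube replicate 1. This is 1 of 16 shares and ratios tested in this way, 13 of which reached 0.1 (0.123 after Benjamini-Hochberg adjustment). Fibrillar genes made up most of it, at 0.330% ± 0.0142 of counts in myoblasts and 1.80% ± 1.15 in myotubes (SD, n = 3), or 1.14% without myotube replicate 1. FACIT genes held 0.0333% ± 0.00223 and 0.196% ± 0.174 of counts, and type VI genes 0.0617% ± 0.0103 and 0.221% ± 0.142 (SD, n = 3). Replicate 1 carried much of both myotube means, which without it were 0.0956% for FACIT and 0.139% for type VI genes. Type IV genes alone among these 4 classes had a smaller share in myotubes, 0.0298% ± 0.00166 against 0.0703% ± 0.0314 (SD, n = 3).

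**Figure D2:**
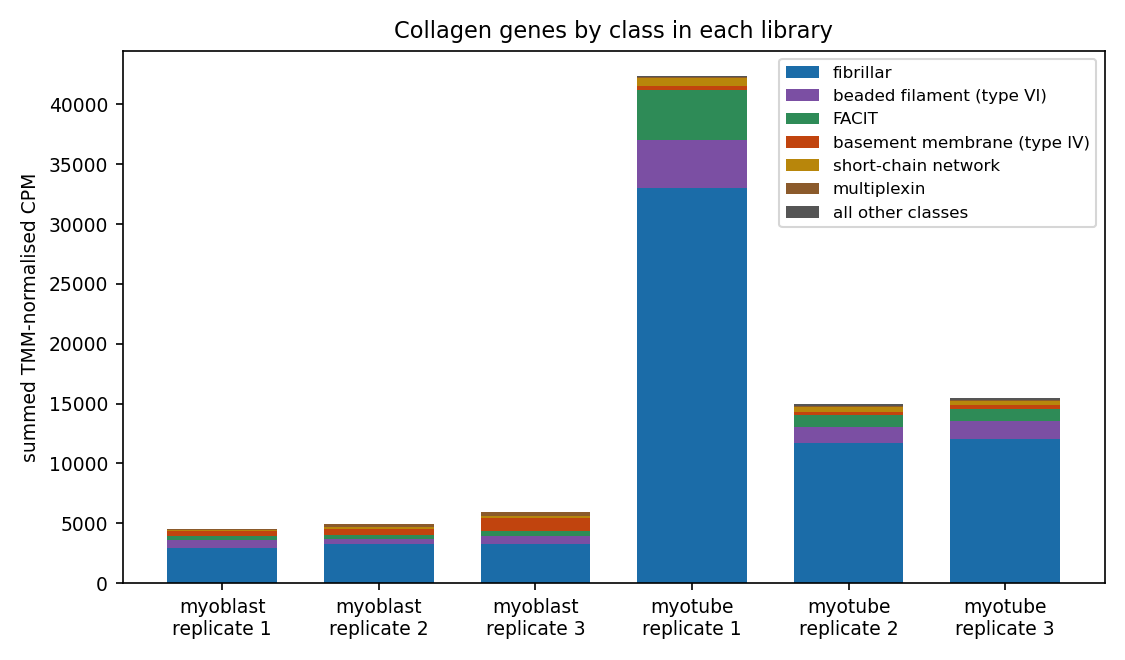
Stacked bars give the summed TMM-normalised CPM of all collagen genes of a class in each of the 6 libraries. The sums over all classes run from 4545 to 5951 CPM in myoblasts and are 42362, 14938 and 15447 CPM in myotube replicates 1, 2 and 3, with fibrillar genes as the largest part in every library.

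Fibrillar collagens were higher in myotubes for most chains. Of 11 genes 10 were tested, 8 were higher, 0 lower and 2 not called, with a median log2 fold change of 2.08, or 1.86 without myotube replicate 1. Col11a1 passed the filter through the myotube libraries alone, which favours its call, and 7 of the 9 other tested genes were higher. Col3a1 (ENSMUSG00000026043.18), the only chain of type III collagen and a partner of type I in soft tissue, had 1233, 1441 and 1084 CPM in myoblast replicates 1 to 3 and 24215, 6352 and 6906 CPM in myotube replicates 1 to 3. All myotube libraries lay far above the myoblasts, and replicate 1 far above the others. The log2 fold change was 3.32 ± 0.58 (SE, adjusted p = 0.00308), and 2.38 without myotube replicate 1. Col3a1 had the highest mean per length of the collagen genes in both groups, at 128 ± 18.3 RPKM in myoblasts and 1272 ± 1035 RPKM in myotubes (SD, n = 3). In myoblast replicate 3 Col5a2 was higher (113 against 110 RPKM). The part of Col3a1 in all collagen counts was 27.1%, 29.2% and 18.2% in myoblasts and 57.2%, 42.5% and 44.7% in myotubes.

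The genes of type I collagen, the main protein of tendon and bone, rose by unequal amounts. Col1a1 had 19.3, 17.5 and 35.3 CPM in the myoblast libraries and 314, 209 and 256 CPM in the myotube libraries. Every myotube library lay above every myoblast library (log2 fold change 3.44 ± 0.32, SE, adjusted p = 0.000242). Col1a2, its partner chain, had 668, 748 and 691 CPM in myoblasts and 2942, 1613 and 1387 CPM in myotubes. Its groups did not overlap either, and the rise was smaller (1.5 ± 0.32, SE, adjusted p = 0.00734). A type I molecule as usually described holds more of the Col1a1 chain than of the Col1a2 chain, but per length Col1a2 RNA was the more abundant in all 6 libraries. The ratio of Col1a2 to Col1a1 in RPKM was 18.2, 22.6 and 10.3 in myoblasts and 4.96, 4.09 and 2.86 in myotubes, with no overlap. This ratio depends on the deposited lengths, 12426 bases for Col1a2 and 6563 for Col1a1.

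Type V collagen, which joins type I in fibrils and limits their thickness, rose in all 3 of its chains. Col5a2 had 795, 756 and 1083 CPM in myoblasts and 3824, 2501 and 2574 CPM in myotubes (log2 fold change 1.76 ± 0.28, SE, adjusted p = 0.00231). Col5a1 had 218, 257 and 378 CPM and then 1543, 912 and 780.1 CPM (1.92 ± 0.33, SE, adjusted p = 0.00311). The remaining chain gene, Col5a3, was lower in level but had the tightest values. Its 17.0, 22.6 and 27.2 CPM in myoblasts became 113, 102 and 102 CPM in myotubes (2.24 ± 0.21, SE, adjusted p = 0.000238), so that replicate 1 did not stand out. The ratio of Col5a2 to Col5a1 in RPKM was 2.81 ± 0.383 in myoblasts and 2.53 ± 0.374 in myotubes (SD, n = 3), with groups that overlap (exact permutation p = 0.4, adjusted 0.4).

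The minor fibrillar genes were rare, and only Col11a1 and Col27a1 among them were called higher. Col11a1, a chain of the cartilage collagen type XI that can pair with type V, had 0.485, 0.219 and 0.234 CPM in myoblasts and 10.1, 5.77 and 4.70 CPM in myotubes (log2 fold change 4.39 ± 0.51, SE, adjusted p = 0.000576). Col27a1, a fibrillar chain best known from cartilage, had 0.785, 0.779 and 0.985 CPM and then 20.1, 3.49 and 5.80 CPM. Its log2 fold change was 3.54 ± 0.67 (SE, adjusted p = 0.00469), or 2.42 without myotube replicate 1, in which it was highest. Col11a2 (0.82 ± 0.47, SE, adjusted p = 0.192) and Col24a1 (0.75 ± 0.49, SE, adjusted p = 0.255) were not called. Col2a1, the cartilage fibril chain, did not pass the filter, with 47 counts over the myoblast libraries and 5 over the myotube libraries.

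The sequence before the start site is shown for Col1a2 and Col3a1, the fibrillar genes with the highest myotube level among those for which RefSeq (GRCm38.p6) gave an upstream window that no annotated gene covers, and for Col6a1, the highest gene of type VI. Each is 250 bases long and ends just before the annotated start, and capitals mark 3 motifs, searched on both strands. The first is CCAAT, known as the binding motif of the transcription factor NF-Y. The second is TATAAA, a common form of the box at which the general transcription machinery assembles. The last is GGGCGG, known as the binding motif of the transcription factor Sp1. The genes, motifs and windows were chosen after the values were seen.
Col1a2, chr6:4505368-4505617, plus strand: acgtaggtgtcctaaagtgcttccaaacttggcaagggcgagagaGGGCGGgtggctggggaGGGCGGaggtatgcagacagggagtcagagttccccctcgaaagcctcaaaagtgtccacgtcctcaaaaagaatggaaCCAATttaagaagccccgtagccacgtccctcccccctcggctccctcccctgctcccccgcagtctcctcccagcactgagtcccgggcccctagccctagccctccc
Col3a1, chr1:45311288-45311537, plus strand: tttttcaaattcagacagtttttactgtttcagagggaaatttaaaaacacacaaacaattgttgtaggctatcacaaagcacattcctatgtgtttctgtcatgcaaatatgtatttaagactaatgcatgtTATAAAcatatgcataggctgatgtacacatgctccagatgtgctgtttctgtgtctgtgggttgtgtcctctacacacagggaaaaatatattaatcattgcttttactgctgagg
Col6a1, chr10:76726045-76726294, minus strand: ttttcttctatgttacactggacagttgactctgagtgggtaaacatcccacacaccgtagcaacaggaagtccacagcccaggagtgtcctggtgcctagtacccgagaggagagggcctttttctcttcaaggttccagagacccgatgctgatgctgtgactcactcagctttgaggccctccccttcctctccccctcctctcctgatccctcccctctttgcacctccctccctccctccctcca
The Col1a2 window held 1 CCAAT, 109 bases before the start, and 2 GGGCGG, 205 and 188 bases before it. Col3a1 held 1 TATAAA, 117 bases before the start, and no CCAAT or GGGCGG. Col6a1 held none of the 3 motifs, although all 3 genes rose in myotubes. Whether any of these matches is used was not tested. Of the 44 collagen genes 35 had a window. GGGCGG was present in 21 of the 35 (60%), against 32.7% of all 32851 windows of 250 bases in the table, and CCAAT in 13 (37.1%, against 33.8%). The E-box CANNTG, which muscle transcription factors bind, was in 19 (54.3%, against 66.2%), and TATAAA in 5 (14.3%, against 12.4%). Motifs were counted on both strands and separately, so that an overlap of 2 motifs counts for each, and for genes with more than 1 window a match in any of them was counted.

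Among the FACIT collagens Col12a1 was the abundant gene that rose. Of 9 genes 6 were tested, 5 were higher, 0 lower and 1 not called, and 4 were higher without myotube replicate 1. The filter favours 4 of the 5, since Col14a1, Col19a1, Col20a1 and Col22a1 passed it through the myotube libraries alone. Of the 2 genes above its level in all libraries, Col12a1 was higher and Col16a1 was not called. The median log2 fold change was 2.67, or 1.66 without that library. Col12a1, a FACIT of tendon and muscle connective tissue, had 278, 268 and 344 CPM in myoblasts and 4035, 953 and 968 CPM in myotubes. All 3 myotube libraries were above the myoblasts, and replicate 1 was 4.20 times the mean of replicates 2 and 3. The log2 fold change was 2.74 ± 0.59 (SE, adjusted p = 0.00809), or 1.67 without replicate 1. Per length, Col12a1 stood at 0.346 ± 0.0570 of Col1a2 in myoblasts and 0.723 ± 0.346 in myotubes (SD, n = 3).

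Col14a1, a FACIT that binds the surface of fibrils, had 0.451, 0.292 and 0.188 CPM in myoblasts and 13.1, 3.59 and 4.87 CPM in myotubes (log2 fold change 4.46 ± 0.64, SE, adjusted p = 0.00133). Without myotube replicate 1 it was 3.65. Col22a1, a marker of the junction between muscle and tendon, had 0.418, 0.219 and 0 CPM and then 1.78, 1.24 and 1.33 CPM (2.59 ± 0.76, SE, adjusted p = 0.0269). It was not called when myoblast replicate 2, myotube replicate 2 or myotube replicate 3 was left out (adjusted p = 0.0837, 0.0539 and 0.0587), and the value was 3.41 without myoblast replicate 1. Col19a1, known from developing muscle and brain, had 0.201, 0.365 and 0.328 CPM and then 4.29, 1.04 and 0.812 CPM. It changed by 2.80 ± 0.73 (SE, adjusted p = 0.0175), or 1.65 without myotube replicate 1, and the call was lost without any 1 of the myoblast libraries (adjusted p = 0.0567, 0.0507 and 0.0557). Col20a1 stayed below 1 CPM in all 6 libraries and was called higher (1.59 ± 0.51, SE, adjusted p = 0.0396). It kept this call without myoblast replicate 1, and lost it without any 1 of the other 5 libraries (adjusted p = 0.0713 to 0.135).

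Col16a1 was the FACIT gene that was not called. It had 28.5, 19.7 and 19.2 CPM in myoblasts and 124, 24.8 and 25.9 CPM in myotubes, so that replicates 2 and 3 lay within the range of the myoblasts and replicate 1 alone lay above it. The log2 fold change was 1.38 ± 0.61 (SE, adjusted p = 0.105), or 0.15 without myotube replicate 1. Col9a2 and Col9a3, chains of cartilage type IX, had 2 and 33 counts in all and were not tested. Summed over the class, the ratio of FACIT to fibrillar RPKM was 0.0728 ± 0.00743 in myoblasts and 0.0658 ± 0.0170 in myotubes (SD, n = 3), with overlap (exact permutation p = 0.4, adjusted 0.4). The overlap came through myotube replicate 1 (0.0855). Replicates 2 and 3 (0.0563 and 0.0557) lay below all myoblast libraries (0.0775, 0.0643 and 0.0768).

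The basement membrane collagen split between its chains. Of 6 type IV genes 4 were tested, of which 1 was lower, 2 were higher and 1 was not called. Col4a6 passed the filter through the myotube libraries alone, which favours its call. Of the 3 genes above its level in all libraries, 1 was higher and 1 lower. Col4a1, which with Col4a2 forms the type IV network found in almost all basement membranes, had 259.5, 351 and 698 CPM in myoblasts and 128, 151 and 136 CPM in myotubes. Every myotube library lay below every myoblast library, and myoblast replicate 3 was the highest. It fell by 1.65 ± 0.35 on the log2 scale (SE, adjusted p = 0.00745), and the call held in all 6 runs that left out a library, with values of -1.93 to -1.16. Col4a2 had 160.5, 172 and 396 CPM and then 104, 120.2 and 138 CPM, also without overlap. Its log2 fold change of -1.01 ± 0.35 was not called (SE, adjusted p = 0.0514), but it was called lower with the replicate number as a block (-0.89, adjusted p = 0.0232). It was called lower also with DESeq2 (adjusted p = 0.0229), with library size scaling alone (0.0214), without a filter (0.0361) and without myoblast replicate 1 (0.0309). It was not called with limma-voom (0.0580), with a mean count of at least 50 (0.0660) or in the other 5 runs that left out a library (0.0518 to 0.124), and without myoblast replicate 3 its value was -0.48.

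Col4a1 and Col4a2 lie head to head on chromosome 8, and their RefSeq spans (GRCm38.p6, 11198423 to 11312889 and 11312805 to 11449287) share 85 bases at the start of both. The ratio of Col4a1 to Col4a2 in RPKM was 1.43, 1.81 and 1.56 in myoblasts and 1.1, 1.12 and 0.873 in myotubes, with no overlap. Col4a5 and Col4a6 are a head-to-head pair on chromosome X with 1274 bases between their spans, and both rose. Col4a5, a chain altered in Alport syndrome, had 11.9, 12.5 and 11.5 CPM in myoblasts and 97.3, 26.3 and 25.7 CPM in myotubes. Its log2 fold change was 2.06 ± 0.51 (SE, adjusted p = 0.0150), or 1.1 without myotube replicate 1. Leaving out myoblast replicate 2 or 3 ended this call (adjusted p = 0.0519 and 0.0562). Col4a6 had 0.134, 0.170 and 0.141 CPM and then 3.67, 0.424 and 0.522 CPM, and was called higher (3.35 ± 0.92, SE, adjusted p = 0.0213). The value was 1.61 without myotube replicate 1, where it was not called (adjusted p = 0.0547), and the call was lost without any 1 of the myoblast libraries as well (0.0669 to 0.0682). Col4a3 and Col4a4 had 4 counts each over all libraries. The ratio of Col4a5 to Col4a1 in RPKM was 0.0509, 0.0396 and 0.0183 in myoblasts and 0.841, 0.194 and 0.210 in myotubes, again without overlap.

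Set against each other within a library, fibrillar and type IV collagens moved apart. The summed RPKM of fibrillar genes was 4.83, 4.30 and 2.14 times that of type IV genes in myoblasts and 70.1, 28.1 and 28.6 times in myotubes. The groups did not overlap (exact permutation p = 0.1, adjusted 0.123), and myotube replicate 1 again had the largest ratio. Col18a1, a multiplexin of basement membranes that yields endostatin, was the other gene called lower. It had 112, 246 and 336 CPM in myoblasts and 87.6, 110.0 and 106 CPM in myotubes, and the lowest myoblast library lay just above the highest myotube library. It fell by 1.19 ± 0.36 on the log2 scale (SE, adjusted p = 0.0311). Of the 6 runs that left out a library, it was called in 1, the run without myoblast replicate 1. In the other 5 the adjusted p was 0.0574 to 0.101. Col15a1, the other multiplexin, was not tested. It had 8, 2 and 0 counts in myoblast replicates 1, 2 and 3 and 0 in myotubes, so the groups overlapped. With the myotube group set to its floor of 3 counts in all, it was 2.01-fold below the myoblast total of 10 counts, taken as exact.

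**Figure D3:**
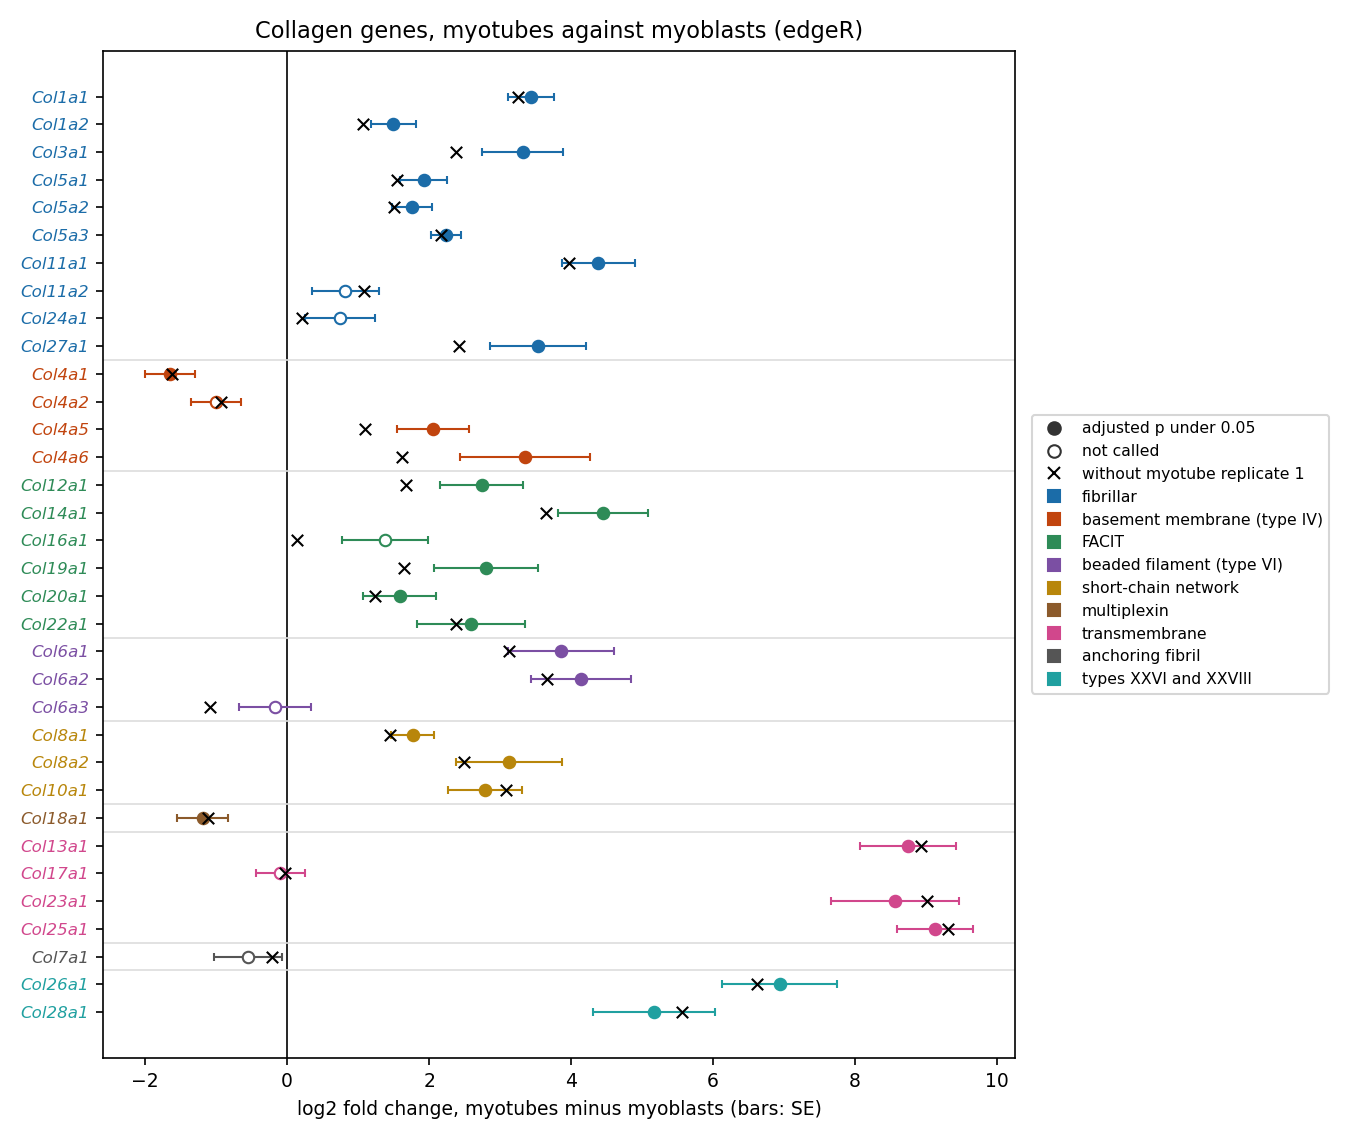
Points give the edgeR log2 fold change of each of the 34 tested collagen genes, myotubes minus myoblasts, with SE bars, filled where the adjusted p is under 0.05, and crosses give the value without myotube replicate 1. Col4a1 (-1.65) and Col18a1 (-1.19) are the filled points left of 0, and Col6a3 moves from -0.17 to -1.08 when replicate 1 is left out.

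Type VI collagen, whose usual molecule combines the products of Col6a1, Col6a2 and Col6a3, did not move as a unit. Col6a1 had 181, 82.9 and 28.6 CPM in myoblasts and 2529, 823 and 909.6 CPM in myotubes. It rose by 3.87 ± 0.75 on the log2 scale (SE, adjusted p = 0.00529), or by 3.12 without myotube replicate 1 and 4.66 without myoblast replicate 1. Col6a2 had 55.5, 16.0 and 9.47 CPM and then 732, 311 and 397 CPM (4.14 ± 0.70, SE, adjusted p = 0.00306, or 5.22 without myoblast replicate 1). For both genes myoblast replicate 1 was the highest of the myoblasts and still below every myotube library. Col6a3 had 402, 376 and 628 CPM in myoblasts and 800.1, 208 and 242 CPM in myotubes, so the groups overlapped through replicate 1. Its log2 fold change was -0.17 ± 0.51 (SE, adjusted p = 0.805), with values of 0.08 to 0.12 without myoblast replicate 3, myotube replicate 2 or myotube replicate 3. Without myotube replicate 1 it was -1.08 and called lower (adjusted p = 0.00960).

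The ratio of Col6a3 to Col6a1 in RPKM was 0.815, 1.66 and 8.06 in myoblasts and 0.116, 0.0925 and 0.0976 in myotubes. Here myotube replicate 1 lay close to replicates 2 and 3, while the myoblast libraries differed among themselves, with replicate 3 the highest. The ratio of Col6a1 to Col6a2 was 7.25 ± 2.25 in myoblasts and 5.32 ± 1.14 in myotubes (SD, n = 3), with overlap (exact permutation p = 0.3, adjusted 0.343). The alternative chains Col6a4, Col6a5 and Col6a6 were not tested, with 50, 14 and 0 counts in all.

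**Figure D4:**
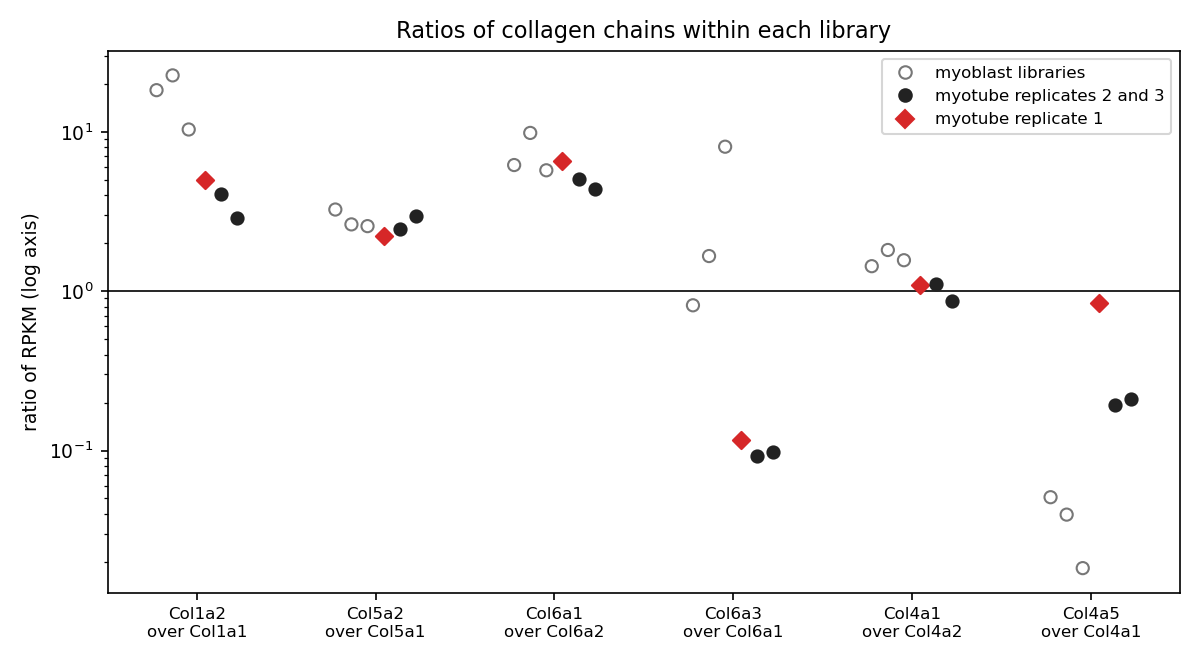
Each point is the ratio of 2 collagen genes in RPKM (log axis) within 1 library. Col6a3 over Col6a1 runs from 0.815 to 8.06 in myoblasts and from 0.0925 to 0.116 in myotubes, and Col1a2 over Col1a1 and Col4a1 over Col4a2 are also lower in all myotube libraries, while Col5a2 over Col5a1 overlaps.

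The 3 largest fold changes among the collagen genes were in transmembrane collagens, all from myoblast levels near 0, so that the fitted values depend on the small count added to each gene and are no bounds. These 3 genes passed the filter through the myotube libraries alone. Col25a1, needed in muscle for innervation by motor neurons, had 0.0167, 0.0244 and 0.0938 CPM in myoblasts (4 counts in all) and 15.3, 19.3 and 28.9 CPM in myotubes. The ratio of the group totals was 615, with a 95% counting interval of 240 to 2261, and the fitted log2 fold change 9.13 ± 0.54 (SE, adjusted p = 4.77e-05). Without myoblast replicate 3 the fitted value was 9.80. Col23a1 had 0.1, 0.146 and 0.0469 CPM and then 9.08, 65.1 and 49.6 CPM (8.56 ± 0.90, SE, adjusted p = 0.000408). All myotube libraries were far above the myoblasts, but replicate 1 was the lowest, at 0.158 times the mean of replicates 2 and 3. Col13a1, a component of the neuromuscular synapse, had 2 counts over all myoblast libraries and 656 over the myotubes, a ratio of 543 (95% interval 150 to 4495). Its myotube values were 6.69, 9.78 and 10.6 CPM. Its fitted log2 fold change was 8.75. Leaving out myoblast replicate 1 made it 7.92, and leaving out myoblast replicate 3 made it 9.35. Col17a1, the hemidesmosome collagen of skin, was the member that was not called, with 2.36 to 3.61 CPM in myoblasts and 2.40 to 3.07 CPM in myotubes.

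The 3 short-chain network collagens were higher, Col10a1 having passed the filter through the myotube libraries alone. The same was true of Col26a1 and Col28a1, given below. Col8a1, a chain of type VIII collagen known from vessel walls and the cornea, had 88.3, 118 and 157 CPM in myoblasts and 563, 348 and 324 CPM in myotubes (log2 fold change 1.77 ± 0.30, SE, adjusted p = 0.00274). Col8a2, its partner chain, had 1.47, 11.3 and 10.5 CPM and then 115, 46.4 and 39.9 CPM (3.13 ± 0.75, SE, adjusted p = 0.0127, or 2.49 without myotube replicate 1). Col10a1, the chain of hypertrophic cartilage, rose from 0.273 ± 0.0418 to 1.95 ± 0.897 CPM (SD, n = 3). Its log2 fold change was 2.79 ± 0.52 (SE, adjusted p = 0.00421). Col28a1 rose by 5.17 ± 0.86 on the log2 scale (SE) from 6 counts in all myoblast libraries. Col26a1 had 1 count in myoblasts and 110 in myotubes, a ratio of 182 (95% interval 32.0 to 7261). The fitted log2 fold change of Col26a1 was 6.94, and 6.19 to 8.52 when 1 library was left out, with the ends set by myoblast replicates 1 and 2. Col7a1, the anchoring fibril chain of skin, was not called (-0.56 ± 0.48, SE, adjusted p = 0.374), with a value of -1.15 without myotube replicate 3. These intervals and the floor cover counting error only.

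The order of levels changed between the groups. In myoblasts the highest genes per length after Col3a1 were Col5a2 with 91.6 ± 18.6, Col4a1 with 58.4 ± 31.0, Col1a2 with 56.5 ± 3.35 and Col6a3 with 39.2 ± 11.6 RPKM (SD, n = 3). Of these neighbours in the order, only Col1a2 and Col6a3 did not overlap between libraries. In myotubes Col3a1 was followed by Col6a1 with 324 ± 219, Col5a2 with 309 ± 77.5, Col1a2 with 159 ± 67.6 and Col12a1 with 130.4 ± 117 RPKM (SD, n = 3). Col3a1 did not overlap Col6a1, nor Col5a2 Col1a2, while the other neighbours named overlapped. Without myotube replicate 1, Col5a2 (264.6 RPKM) came before Col6a1 (198 RPKM) and Col5a1 (98.9 RPKM) before Col12a1 (63.0 RPKM), in both remaining libraries. Col4a1 ranked 3 in myoblasts and 11 in myotubes, at 18.6 ± 1.55 RPKM, next to Col4a2 at 18.2 ± 2.63 RPKM (SD, n = 3).

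Myotube replicate 1 was compared with replicates 2 and 3 as a description, since 1 library allows no test. Of the 34 tested collagen genes 13 were past 2-fold above the mean of the other 2 myotube libraries in log2 CPM (38.2%, against 10.4% of all tested genes) and 4 were past 2-fold below (11.8%, against 7.58%). It was the highest of the 3 myotube libraries in 23 genes and the lowest in 11. The classes differed in this. Past 2-fold above were 4 of 6 FACIT, 3 of 3 type VI, 2 of 4 type IV and 3 of 10 fibrillar genes, with median differences of 1.86, 1.55, 0.87 and 0.91 on the log2 scale. Among the transmembrane genes 0 were past 2-fold above and all 4 lay below the mean of the others, with a median difference of -0.61 and Col23a1 at -2.64. The 4 genes past 2-fold below were Col23a1, Col28a1 (-1.92), Col7a1 (-1.61) and Col10a1 (-1.27). The largest excesses were in Col4a6 (2.81), Col16a1 (2.29), Col19a1 (2.15), Col27a1 (2.15) and Col12a1 (2.07). Col4a1 (-0.16) and Col18a1 (-0.30), the genes called lower in myotubes, were close to the other libraries, as were Col4a2 (-0.32) and Col5a3 (0.15).

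**Figure D5:**
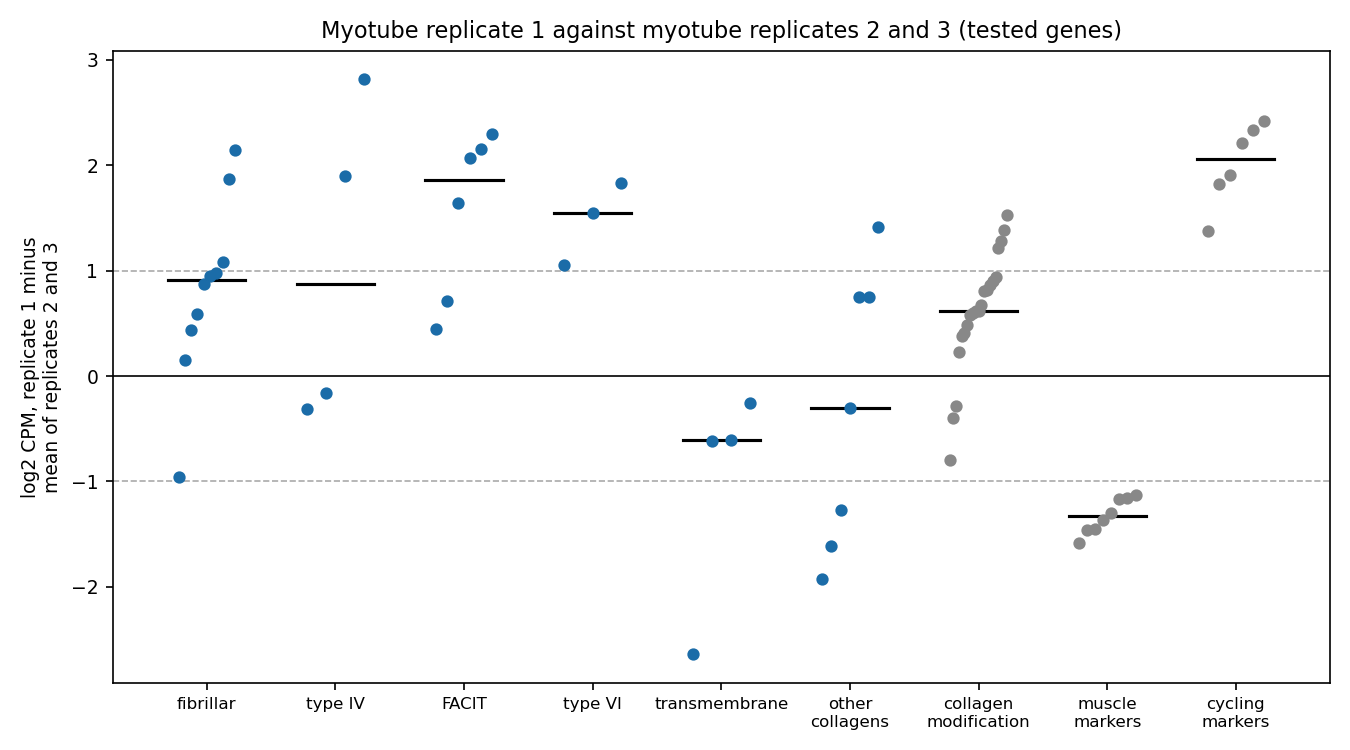
Each point is the log2 CPM of 1 tested gene in myotube replicate 1 minus its mean in myotube replicates 2 and 3, by collagen class (blue) and for 3 other lists (grey), with the median as a bar and 2-fold as dashed lines. FACIT and type VI medians (1.86 and 1.55) lie above 2-fold as the cycling markers do (2.06), and the transmembrane genes (-0.61) lie on the side of the muscle markers (-1.33).

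Markers of other cell types were read in the same libraries. The fibroblast list summed to 1054 CPM in myotube replicate 1 against 278 and 295 CPM in replicates 2 and 3, and to 526, 193 and 125 CPM in myoblast replicates 1, 2 and 3. Most of the sum in both libraries numbered 1 was Cd34, a gene not called, with 618 CPM in the myotube and 429 CPM in the myoblast library. Of the 8 fibroblast genes 6 were tested and 4 were higher in myotubes, as were 20.5% of all tested genes. Among the 4, Dpt, Pi16 and Mfap5 passed the filter through the myotube libraries alone, which favours their calls. Thy1 and Tcf21 had a count in no library. Pdgfra, Dpt, Pi16, Ly6a and Cd34 were each past 2-fold higher in myotube replicate 1 than the mean of replicates 2 and 3. This was so for 10.4% of all tested genes. Mfap5 was not past it (58.6 against 68.9 and 70.9 CPM). Of 5 tendon markers 3 were tested and 1 was called (33.3%, against 40.1% of all tested genes). This was Fmod, higher in myotubes, having passed the filter through the myotube libraries alone. Scx and Mkx were not called. Of 6 osteoblast markers 2 were tested and 0 called. Of the tested pair, Phex had 54.1 CPM in replicate 1 against 2.15 and 1.91 CPM in the other myotube libraries, and Runx2 had 22.6 against 24.3 and 27.2 CPM. Ibsp had 1 count in all. Of 6 cartilage markers 2 were tested and 1, Sox9, was lower. Of 5 fat markers only Pparg was tested, and it was lower, while Adipoq and Cidec had a count in no library. The 5 endothelial markers summed to at most 0.755 CPM in any library. The part of fibroblast-like cells, of cycling cells or of incomplete differentiation in the collagen levels of replicate 1 was not tested.

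Genes that process and bind collagen gave a mixed picture. Of 21 tested genes for the modification, folding and export of collagen chains, 8 were higher, 0 lower and 13 not called, or 38.1% called, close to the 40.1% of all tested genes, with a median log2 fold change of 0.32 against 0.06. The prolyl hydroxylase subunit gene P4ha1 rose by 1.88 ± 0.39, the lysyl hydroxylase genes Plod2 by 2.13 ± 0.44 and Plod1 by 1.5 ± 0.27 on the log2 scale (SE). Without myotube replicate 1 P4ha1 stood at 1.24 and Plod2 at 1.41, both still called. The collagen chaperone gene Serpinh1 was at 810 CPM in myoblasts and 1155 CPM in myotubes on average, and was not called (adjusted p = 0.121). Of 12 tested genes for procollagen cleavage and cross-linking, 4 were higher and 2 lower (50% called, median 0.52). Adamts3, among the 4 higher, passed the filter through the myotube libraries alone. Adamts2, which removes the amino-terminal propeptide, rose by 2.65 ± 0.28, and the cross-linking enzyme genes Lox and Loxl1 by 1.38 ± 0.41 and 0.84 ± 0.26 (SE). Lox was at 0.68 without myotube replicate 1, still called, but lost its call without any 1 of the myoblast libraries (adjusted p = 0.0742 to 0.0996). Loxl1 lost it without myoblast replicate 1 or 3 or myotube replicate 2 or 3 (0.0652 to 0.111). Pcolce2, an enhancer of carboxy-terminal cleavage, changed by -3.12 ± 0.30 and Loxl2 by -1.80 ± 0.38 (SE).

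Among 9 tested receptors and uptake genes 4 were higher and 0 lower (44.4% called, near the share of all tested genes, median 0.83). The integrin subunit genes Itga11 and Itga10, receptors for fibrillar collagen and for collagens of cartilage, rose by 6.89 ± 0.57 and 4.09 ± 0.34, and the collagen uptake receptor gene Mrc2 by 1.45 ± 0.25 on the log2 scale (SE). Itga11 was at 6.14 without myotube replicate 1. Of 4 tested genes of collagen breakdown (50% called, median 1.13), Mmp2 (3.55 ± 0.54) and Mmp14 (1.07 ± 0.29, SE) were higher. Mmp2 was at 4.23 without myoblast replicate 1, and Mmp14 kept its call without myotube replicate 1 but lost it without any 1 of the other 5 libraries (adjusted p = 0.0565 to 0.0697). Of 13 collagen-binding and matrix genes 11 were higher and 1 lower (92.3% called, median 2.52), with Fn1 (fibronectin) at 2.05 ± 0.40, Thbs1 (thrombospondin) at 2.52 ± 0.32 and Sparc at 1.85 ± 0.32 (SE). Among the 11, Lum, Dpt, Fmod and Tgfbi passed the filter through the myotube libraries alone. The filter favours their calls, and they count in the 92.3% and in the median. Nid1, which links laminin to type IV collagen, was the 1 that fell (-2.31 ± 0.42, SE), while Nid2 rose (1.72 ± 0.39, SE).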

How the data were processed

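Total RNA libraries of C2C12 cells, 3 of myoblasts and 3 of myotubes, were prepared with a strand-specific kit that removes ribosomal RNA, per the labels' protocols. The authors deposited raw counts per gene with gene lengths. Per the submitters' processing notes, the build was mm10 and the tools included featureCounts 1.5.1, STAR 2.5.1b and DESeq2 1.18.1, with no role given for each. Whether counting used the strand is not given in the sources used here. Reads of overlapping genes, such as Col4a1 and Col4a2 at their starts, are therefore uncertain.

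Symbols gave 44 members, and their classes were written by hand. The members and lists were chosen with earlier results of these data known. The deposited counts were tested with edgeR 4.0.16 under R 4.3.3 (TMM, filterByExpr, robust quasi-likelihood F-test, no covariate), adjusted by the Benjamini-Hochberg method over 15932 genes. Each SE was taken from the fold change and its F statistic (fold size over root F). Differences in log2 CPM used a prior count of 2. Alternatives were DESeq2 1.42.0, limma-voom (limma 3.58.1), other filters and scaling, a replicate block and leaving out each library. Tested on simulated data, the fit recovered fold sizes, but false calls made up a larger share than the threshold sets in every run. A limit first placed on that share was exceeded and was then dropped, so calls near the threshold deserve caution.

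Same-numbered libraries deviated from their group means together (correlations 0.232, 0.189 and 0.170 over the tested genes), which leaves a pairing by number possible but not established. The main fit and the permutation tests were unpaired, and the replicate number entered only as a block in 1 alternative fit. What a number marks is not stated in the labels. Myoblast replicate 3 correlated more with myotube replicate 2 (0.358), and myoblast replicate 1 with myotube replicate 2 stood at -0.429. Fully described were genes with a mean of at least 10 CPM or called fibrillar, type IV and FACIT genes, and up to 3 called genes of highest level per direction in other lists. Other genes named, among them Col13a1, Col10a1, Col26a1, Col28a1, Serpinh1, Nid2 and Phex, the shares and ratios beyond the total, and the division by which group passed the filter were chosen after their values were seen.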

Additional observations from a re-analysis of the deposited data

How the results depend on the processing

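Across the 12 other fits, 18 to 25 collagen genes were higher. The lowest number came with a mean count of at least 50. That filter left Col4a6, Col10a1, Col19a1, Col20a1, Col22a1, Col26a1 and Col28a1 untested. Leaving out each library in turn gave 20 to 23 higher, of which 20 were called in all 6 runs, and 1 to 4 lower. DESeq2 called 4 lower and edgeR without a filter also 4, Col2a1 and Col4a2 in addition to Col4a1 and Col18a1. Without a filter, Col4a5, Col6a1, Col8a2 and Col12a1 lost their calls (adjusted p = 0.103, 0.0648, 0.111 and 0.0696), as did Col20a1 (0.0969), which DESeq2 (0.0751) and library size scaling (0.0624) did not call either. Col16a1 was called higher with DESeq2 (0.0461), and Col6a4 without a filter. The cause of these changes was not tested. With the replicate block, of the collagen genes only Col4a2 changed its call, and 25 were higher and 3 lower. Of 399 pairs of a collagen gene and a setting, 359 kept direction and side of the threshold, 29 lost a call and 7 gained one. The sign differed in 4, of which 0 were called in either fit: Col6a3 without myoblast replicate 3, myotube replicate 2 or myotube replicate 3, and Col17a1 without myoblast replicate 3. Over all genes, 2430 to 3599 were higher and 2127 to 3517 lower when a library was left out. Under library size scaling the median over all tested genes was -0.07 in place of 0.06 (log2), and the calls were 2678 higher and 3678 lower, against 3264 and 3122. The share of counts kept its direction without Col1a1, Col1a2 and Col3a1 (difference 0.583 percentage points) and per length (0.504). Genes under about 1 CPM rest on few counts, and their fold changes are the least certain.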
